A study of Mus musculus with 4 samples.

Results

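The genes examined were 10 inhibitors of MAP kinase signalling, of 31894 gene names on the array: the MAP kinase phosphatases Dusp1, Dusp2, Dusp4, Dusp5, Dusp6 and Dusp7, the Sprouty genes Spry1, Spry2 and Spry4, and the Sprouty-related gene Spred1. They were taken by the gene name that the array design gives each non-control probe, which gave 11 of 39429 probes, 1 for each gene and 2 for Spred1. The brightest probe over the 4 arrays stood for its gene. The genes were chosen by name with earlier results of these data known, and brightness alone chose between the 2 Spred1 probes.

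RNA came from mouse mammary tumor cells of MMTV-Neu mice, in which the mouse mammary tumor virus promoter drives the Neu (Her2, Erbb2) oncogene in the mammary epithelium. There were 2 samples labelled Pak1-/- and 2 labelled Pak1+/+, from separate tumors by the design text, while the methods speak of tumor-derived cell lines. Whether the 2 samples of a genotype came from different lines could not be settled from these sources. If they were cultures of the same line, they are not independent tumors, and genotype and line cannot be told apart. All 4 samples carried the Neu transgene, were grown in low calcium medium with 5% horse serum, were starved of serum for 3 h and were then given EGF for 15 min. No sample without EGF was analysed here, so the values are levels after EGF and not responses to it. The age of the mice was not given in the sources used here.

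Signals from growth factor receptors such as the EGF receptor and Her2 pass through RAS, RAF and MEK to the kinase ERK, and related cascades end in JNK and p38. ERK in turn induces its own inhibitors. The DUSPs are phosphatases that remove the activating phosphates from MAP kinases: Dusp1, Dusp2, Dusp4 and Dusp5 are inducible nuclear enzymes, and Dusp6 and Dusp7 are cytoplasmic enzymes that prefer ERK. Sprouty and Spred proteins act upstream, between the receptor and RAF. Their transcripts are widely read as a sign of ERK output in Her2-driven tumor cells.

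The arrays were alike in quality. The median spot intensity was 322 to 331 over a local background of 39 to 42, and 62.2% to 70.4% of probes were well above background. All 4 arrays lay on 1 slide and came from 1 scan, with Pak1-/- at positions 1 and 2 and Pak1+/+ at positions 3 and 4, so position and genotype cannot be told apart. The single Pak1 probe was not lower in the Pak1-/- samples (12.21 and 12.25 against 12.04 and 12.04 on the normalized log2 scale, difference 0.19, SE 0.07, adjusted p = 0.070 in limma). Directions below therefore follow the labels. Luminal epithelial markers were well above background on all arrays for 7 of 8 genes, with a summed intensity of 1066880 to 1073860 in Pak1-/- and 859077 to 878033 in Pak1+/+. The bright Krt8 and Krt18 carry that sum, and the list held 3 higher, 1 lower and 4 not called, with a median of -0.075 log2. The basal epithelial markers moved with genotype: 6 of 7 tested were higher in Pak1-/- (Krt17 by 4.92 and Krt14 by 2.83 log2), and their summed intensity was 90813 to 100799 against 18962 to 19462, with Myh11 at background. The fibroblast sum was low (975 to 1164 against 813 to 851, with Col3a1, Dcn, Lum and Pdgfrb at background and 1 higher, 0 lower of 3 tested, Col1a1 by 1.12 log2), and the endothelial sums overlapped (9814 to 10181 against 8885 to 10682, with Cldn5, Emcn and Tek at background). The leukocyte sum was 51957 to 74623 against 43380 to 47905, with 6 of 8 genes above background on all arrays, 0 higher and 2 lower of 6 tested. The bright Itgam, which was not called (0.49 log2, adjusted p = 0.11 in limma), carries most of that sum. The 2 lower genes were Adgre1 (-1.05 log2) and Ptprc (-0.45 log2). The part of the luminal, basal, fibroblast and leukocyte markers in the results below was not tested, and in bulk RNA fewer cells of a type and less RNA per cell cannot be told apart.

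Dusp1 was higher and Dusp6, Dusp7, Spry1 and Spred1 were lower in Pak1-/- cells. Dusp1 rose 2.69-fold and Dusp6 fell 2.59-fold, and these were the only differences of at least 2-fold that passed the threshold among the 9 genes tested. In limma, 5 of the 9 passed an adjusted p of 0.05 (55.6%), 1 higher (11.1%) and 4 lower (44.4%). That share lay close to the background: over all genes tested, by their brightest probe, 51.0% passed, 22.8% higher and 28.2% lower, and over all probes 51.9% passed. A change of at least 2-fold that also passed was found for 2 of 9 genes (22.2%), against 12.6% of all genes. The groups did not overlap for 8 of 9 genes (88.9%), against 77.6% of all genes. The median difference was -0.32 log2 for the 9 genes and -0.055 for all genes. Dusp2 is among the 9 only because its probe was above background on the Pak1-/- arrays. The other gene, Spry4, was not well above background on any array and was not tested.

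**Figure D1:**
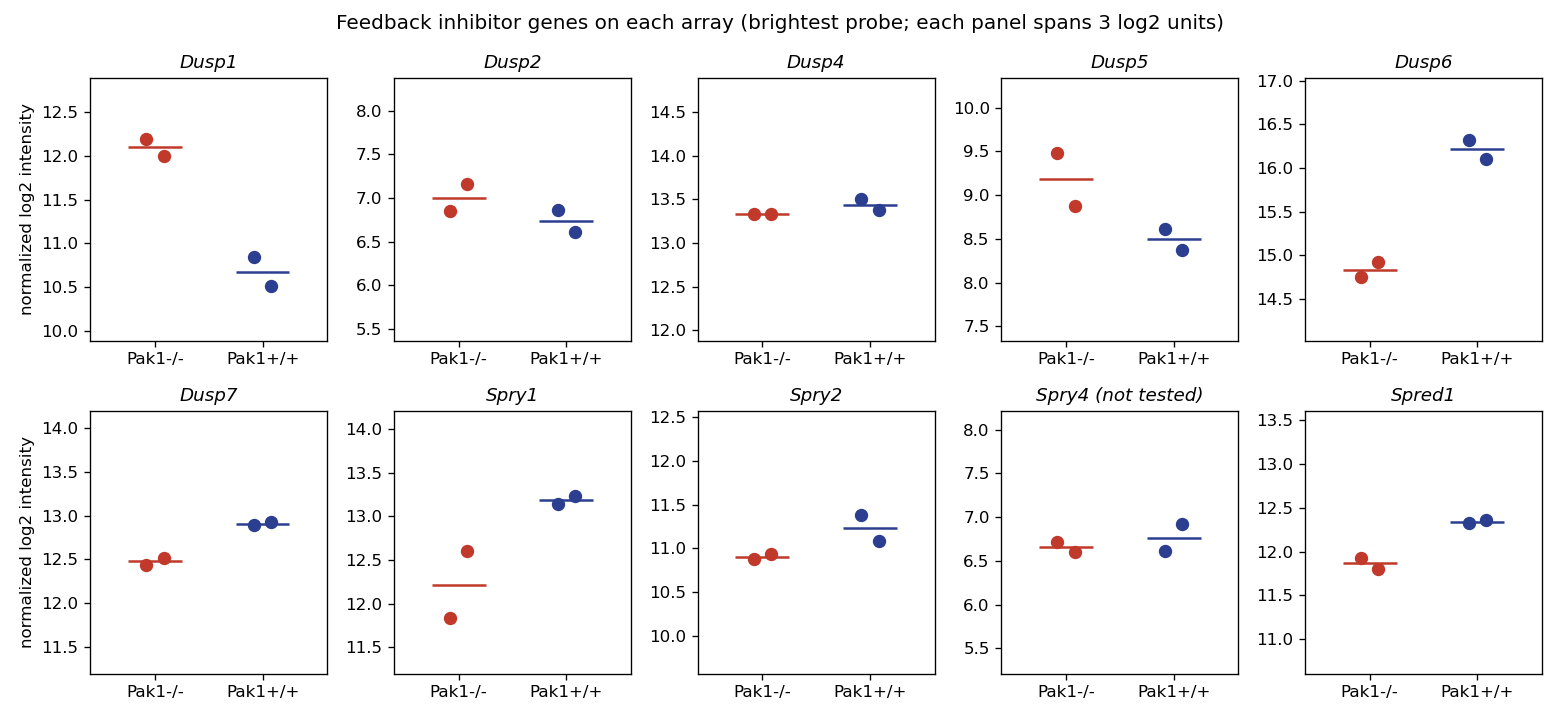
Normalized log2 intensity (vertical axis) of the brightest probe of each of the 10 genes on the 2 Pak1-/- arrays (red) and the 2 Pak1+/+ arrays (blue), with the group mean as a line. Every panel spans 3 log2 units, so gaps compare across panels but levels do not. The groups stand apart for 8 genes, most widely for Dusp1 and Dusp6, and overlap for Dusp2 and Spry4.

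Of the 4 nuclear phosphatases, 1 was higher and 0 were lower at the threshold, where 22.8% of all genes were higher and 28.2% lower. Groups this small say nothing of a division between nuclear and cytoplasmic enzymes, which was not tested. Dusp1, an immediate early gene whose product acts on p38 and JNK as well as ERK, stood at 12.198 and 12.001 log2 in Pak1-/- and at 10.842 and 10.505 in Pak1+/+. Both Pak1-/- arrays lay above both Pak1+/+ arrays by more than either pair of replicates differed. The means were 12.10 ± 0.14 and 10.67 ± 0.24 (SD, n = 2 each), a difference of 1.43 (SE 0.14, 95% interval 1.05 to 1.81, adjusted p = 0.0019). The unnormalized spot intensities were 4516 and 4256 against 1874 and 1390, over a local background of 38 to 42.5. Of all genes tested, 6.77% differed by a larger size. The call held under all 18 alternatives, between 1.26 and 1.59.

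Dusp5, a nuclear phosphatase that acts on ERK, pointed the same way but did not pass. Its values were 9.49 and 8.87 in Pak1-/- and 8.61 and 8.37 in Pak1+/+. The groups did not overlap, yet the 2 Pak1-/- replicates differed by 0.62, a gap exceeded by only 1.83% of genes on those arrays, where the median gap was 0.11. The difference was 0.69 (SE 0.23, 95% interval 0.088 to 1.29, adjusted p = 0.060). It passed under 5 of 18 alternatives and rested on Pak1-/- replicate 1: without it the difference was 0.38 (adjusted p = 0.12), and without Pak1-/- replicate 2 it was 0.99 (adjusted p = 0.019).

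Dusp4, which acts on ERK and JNK, was bright on all arrays and nearly level. It stood at 13.33 and 13.33 in Pak1-/- and at 13.50 and 13.37 in Pak1+/+. The difference of -0.11 did not pass (SE 0.08, adjusted p = 0.31), and its 95% interval of -0.31 to 0.10 leaves out a change of Dusp1's size. Dusp2, best known from activated lymphocytes, was close to background: its values were 6.85 and 7.16 in Pak1-/- and 6.86 and 6.61 in Pak1+/+. The groups overlapped. The probe was well above background only on the Pak1-/- arrays and entered the test through them, so no difference is read from it (adjusted p = 0.19). Its difference ran from 0.11 to 1.09 over 17 alternatives and passed under none of them.

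The sequences before the starts of Dusp1 and Dusp5 are shown as a description. A different motif was chosen for the capitals of each gene. Binding was not measured, and any part of these motifs in the differences was not tested. Of the 10 genes, 8 had an entry in the RefSeq promoter table (build GRCm38.p6), which gives 250 bases before and 50 after each gene's start. Positions are counted from the start, with -1 as the last base before it, and both strands were searched. In Dusp1 (chr17:26508473-26508722, minus strand) the capitals mark TGACG, the half-site of the cAMP response element. A half-site lies at -191 to -187, and a pair that overlap, at -143 to -139 and -140 to -136, form the full element TGACGTCA. The full element is in 1.79% and the half-site in 20.8% of all 32851 promoters of the same length. In Dusp5 (chr19:53528895-53529144, plus strand) the capitals mark 2 adjoining CArG boxes, the site of serum response factor, at -82 to -73 and -72 to -63. A CArG box is in 1.63% of all promoters.
Dusp1: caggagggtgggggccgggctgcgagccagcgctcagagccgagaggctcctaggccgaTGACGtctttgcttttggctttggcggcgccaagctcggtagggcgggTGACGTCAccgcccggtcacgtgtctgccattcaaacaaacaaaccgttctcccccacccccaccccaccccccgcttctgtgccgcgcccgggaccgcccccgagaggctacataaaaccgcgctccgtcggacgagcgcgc
Dusp5: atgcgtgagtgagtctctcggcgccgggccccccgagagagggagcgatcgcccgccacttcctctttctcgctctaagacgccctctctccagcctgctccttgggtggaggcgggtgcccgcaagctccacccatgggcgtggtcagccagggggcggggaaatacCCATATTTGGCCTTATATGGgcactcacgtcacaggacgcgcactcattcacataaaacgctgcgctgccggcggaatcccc

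Both cytoplasmic phosphatases were lower in Pak1-/- cells, as were 28.2% of all genes, and 2 genes are too few to describe a class. Dusp6, the ERK phosphatase most often used as a readout of ERK activity, stood at 14.75 and 14.93 in Pak1-/- and at 16.32 and 16.10 in Pak1+/+. Both Pak1-/- arrays lay more than 1 log2 unit below both Pak1+/+ arrays. The means were 14.84 ± 0.12 and 16.21 ± 0.16 (SD, n = 2 each), a difference of -1.37 (SE 0.11, 95% interval -1.67 to -1.08, adjusted p = 0.0011). The unnormalized intensities were 25590 and 32020 against 88450 and 72280, and no spot was marked as saturated. Of all genes tested, 7.26% differed by a larger size and 2.90% had a more negative difference. The call held under all 18 alternatives, between -1.49 and -1.26. The probe (mm9 chr10:98729985-98730044) is the only one of this gene on the array.

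Dusp7, the close relative of Dusp6, was lower by less. Its values were 12.43 and 12.52 in Pak1-/- and 12.89 and 12.93 in Pak1+/+. The replicates of each group lay close together and the groups stood apart. The difference was -0.43 (SE 0.07, 95% interval -0.63 to -0.24, adjusted p = 0.0082), or 1.35-fold lower. A neighbouring probe, filed under LOC674944 and described as similar to Dusp7, shares a run of 15 bases with the Dusp7 probe, and the listed positions of the probes overlap. It was examined after its values were seen, and was lower as well (12.39 and 12.39 against 12.82 and 12.73, difference -0.39, adjusted p = 0.011).

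The sequence before Dusp6 is given beside those of Dusp1 and Dusp5, and its relation to the differences was not tested. In Dusp6 (GRCm38.p6 chr10:99262981-99263230, plus strand) the capitals mark CGGAA on either strand, a core of sites bound by ETS factors, which are targets of ERK. It occurs 3 times, from -155 to -57. The core is common, being in 29.9% of all promoters. The window held no CRE half-site and no CArG box. Of the other genes with an entry, Dusp1, Dusp2, Dusp7 and Spry1 held no core, while Spry2 held 1, Spred1 held 2 and Dusp5 held 1 at -10. Dusp5 also held a CRE half-site at -55, and neither is capitalized in its sequence. A match of letters is a description and not a binding site.
Dusp6: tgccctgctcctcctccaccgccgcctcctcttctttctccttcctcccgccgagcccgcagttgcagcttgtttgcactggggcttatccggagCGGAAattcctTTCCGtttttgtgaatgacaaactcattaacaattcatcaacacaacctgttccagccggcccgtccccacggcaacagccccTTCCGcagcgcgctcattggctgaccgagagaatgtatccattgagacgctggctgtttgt

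**Figure D2:**
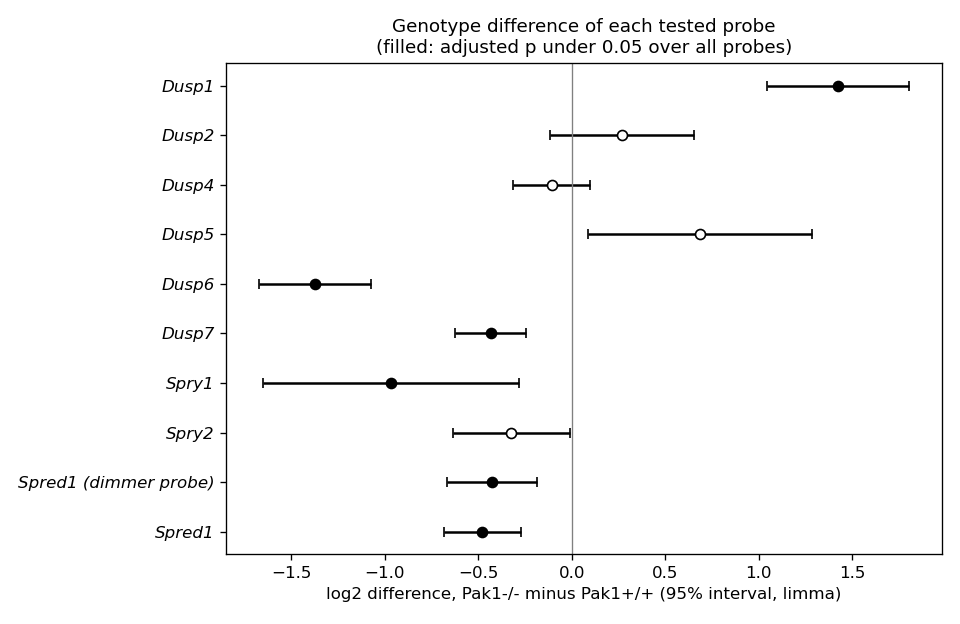
Log2 difference between Pak1-/- and Pak1+/+ (horizontal axis) for the 10 probes that were tested, with 95% intervals from limma; filled points passed an adjusted p of 0.05 over all probes. Dusp1 lies at 1.43 and Dusp6 at -1.37, and the 2 Spred1 probes lie at -0.43 and -0.48.

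Of the Sprouty genes, which hold back the passage of receptor signals to RAS and RAF, 2 of 3 could be tested and 1 was lower, where 28.2% of all genes were lower. Spry1 stood at 11.84 and 12.60 in Pak1-/- and at 13.14 and 13.23 in Pak1+/+. The groups did not overlap, but the Pak1-/- replicates were 0.76 apart, a gap exceeded by 1.22% of genes. The difference was -0.97 (SE 0.26, 95% interval -1.65 to -0.28, adjusted p = 0.034). Its size rested on the Pak1-/- arrays: without replicate 1 it was -0.59 (adjusted p = 0.022) and without replicate 2 it was -1.35 (adjusted p = 0.0065). The call was lost without Pak1+/+ replicate 1 (adjusted p = 0.073), without Pak1+/+ replicate 2 (adjusted p = 0.091) and without the filter on dim probes (adjusted p = 0.059).

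Spry2, the Sprouty best known for acting on EGF receptor turnover, was at 10.88 and 10.93 in Pak1-/- and at 11.38 and 11.08 in Pak1+/+. The groups did not overlap, though the gap between them was smaller than that between the Pak1+/+ replicates. The difference of -0.32 did not pass (SE 0.12, 95% interval -0.64 to -0.0097, adjusted p = 0.079). Without Pak1+/+ replicate 2 it was -0.47 and passed (adjusted p = 0.032), and without Pak1+/+ replicate 1 it was -0.18 (adjusted p = 0.27). Spry4 was listed at 6.71 and 6.60 against 6.61 and 6.92, with unnormalized intensities of 82.3 to 109.5 over a local background of 35 to 43.5. These 4 values were not well above background and overlapped, so no difference can be read from them.

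Spred1, which brings the RAS inhibitor neurofibromin to the membrane, was lower on both of its probes. The brighter probe (mm9 chr2:117005906-117005965) stood at 11.92 and 11.80 in Pak1-/- and at 12.32 and 12.36 in Pak1+/+. Its difference was -0.48 (SE 0.08, 95% interval -0.69 to -0.27, adjusted p = 0.0075). The dimmer probe (mm9 chr2:117004952-117005011) stood at 11.46 and 11.27 against 11.80 and 11.78, a difference of -0.43 (SE 0.09, adjusted p = 0.017). The groups did not overlap on either probe, and the 2 differences lay within 1 standard error of each other. Another probe described as Spred1 (mm9 chr2:116998491-116998550) is filed under a transcript accession and is therefore outside the rule. It was dim and level, at 7.66 and 7.47 against 7.52 and 7.51 (difference 0.049, adjusted p = 0.69), and was examined after its values were seen.

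**Figure D3:**
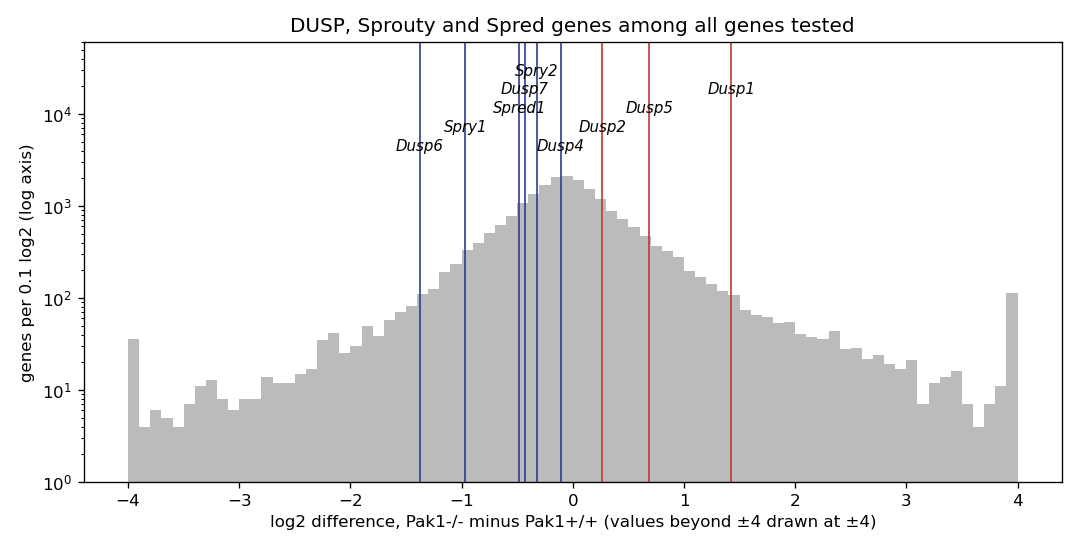
Number of genes (vertical axis, log scale) by log2 difference between Pak1-/- and Pak1+/+ (horizontal axis) over the 22012 genes tested, with the 9 tested genes as lines (red above 0, blue below). Dusp6 and Spry1 lie in the lower tail, with 2.90% and 6.28% of genes below them, and 95.9% of genes lie below Dusp1.

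The rest of the MAP kinase network was described from 5 lists of 90 genes in all, of which 86 were tested. Of these, 58 passed (67.4%, against 51.0% of all genes), 32 higher (37.2%) and 26 lower (30.2%) in Pak1-/-. Other DUSP genes went both ways, with 5 higher, 3 lower and 6 not called of 14 tested and a median of 0.23 log2. The count of lower genes was 1 in place of 3 without Pak1-/- replicate 1, Pak1+/+ replicate 1 or Pak1+/+ replicate 2. The largest rise was that of Dusp8, a phosphatase of JNK and p38 (1.51, adjusted p = 0.00073), and the largest fall that of Dusp14 (-0.43, adjusted p = 0.0082). Of the other ERK feedback genes, 4 were higher, 2 lower and 6 not called of 12, with a median of 0.21, and without Pak1+/+ replicate 1 the count of higher genes was 2 in place of 4. Errfi1, a feedback inhibitor of the EGF receptor kinase, was higher (1.58, adjusted p = 0.0075), and Spred2, a relative of Spred1, was lower (-0.78, adjusted p = 0.0021).

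The steps from the receptor to ERK were divided as well, with 7 higher, 8 lower and 7 not called of 22 and a median of -0.097, against 22.8% higher, 28.2% lower and a median of -0.055 over all genes. The count of higher genes was 4 in place of 7 without Pak1-/- replicate 1, Pak1+/+ replicate 1 or Pak1+/+ replicate 2. The count of lower genes was 4 in place of 8 without Pak1+/+ replicate 1 and 5 without Pak1+/+ replicate 2. Egfr was higher (0.55, adjusted p = 0.032) and Erbb2 was lower (-0.31, adjusted p = 0.020). Mapk3, a kinase of the ERK family, did not pass (0.092, adjusted p = 0.63). The largest rise was that of Rps6ka1, a kinase activated by ERK (1.13, adjusted p = 0.00048), and the largest fall that of Sos2, an exchange factor that activates RAS (-0.83, adjusted p = 0.0019). Of the JNK and p38 genes, 5 were higher, 5 lower and 5 not called of 15, with a median of -0.037, and the count of higher genes was 3 in place of 5 whichever of the 4 arrays was left out. Map2k6, which activates p38, was higher (2.43, adjusted p = 0.00091), and Mapk13, a p38 kinase, was lower (-1.48, adjusted p = 0.00027). The Map2k6 probe was above background on 3 of the 4 arrays and dim in Pak1+/+ (7.52 and 7.02 log2), so the size of its rise is uncertain.

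ERK-induced genes other than the feedback inhibitors also moved in both directions, as Dusp1 and Dusp6 did. Of 23 tested, 11 were higher, 8 lower and 4 not called, with a median of 0.32, against 22.8% higher, 28.2% lower and a median of -0.055 over all genes. The largest rise was that of Jun, an AP-1 factor (2.51, adjusted p = 0.00089), and the largest fall that of Etv1, an ETS factor (-3.37, adjusted p = 0.00026). Its relatives Etv4 (-1.72, adjusted p = 0.00030) and Etv5 (-1.07, adjusted p = 0.0013) were lower too, and Srf, the serum response factor, was higher (1.01, adjusted p = 0.0059). Etv4, Etv5 and Srf were picked out after their values were seen. No test related these genes to Dusp1, Dusp5 or Dusp6.

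**Figure D4:**
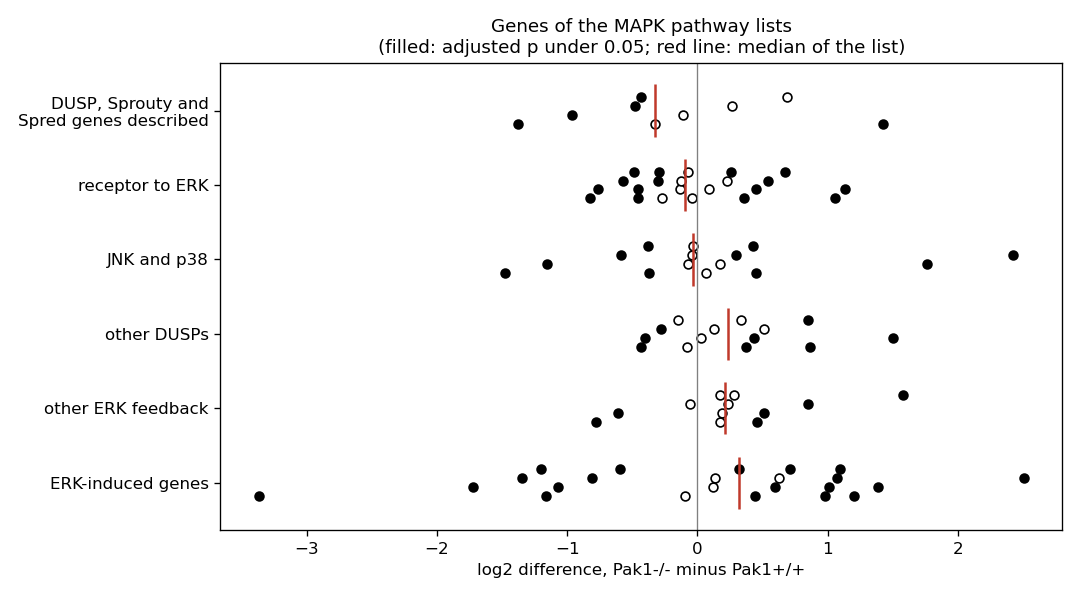
Log2 difference between Pak1-/- and Pak1+/+ (horizontal axis) of each tested gene of the 10 DUSP, Sprouty and Spred genes and of the 5 pathway lists (rows); filled points passed an adjusted p of 0.05, and the red line is the median of the row. Every row holds called genes on both sides of 0, and the medians lie between -0.32 and 0.32.

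The replicate error set apart 3 kinds of result. Dusp1, Dusp6, Dusp7 and Spred1 kept their side of the threshold in all fits that left out 1 array. Spry1, Spry2 and Dusp5 crossed it in at least 1 such fit. Dusp4 and Dusp2 did not pass in any fit. No gene of the 9 changed sign under any of its alternatives.

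**Figure D5:**
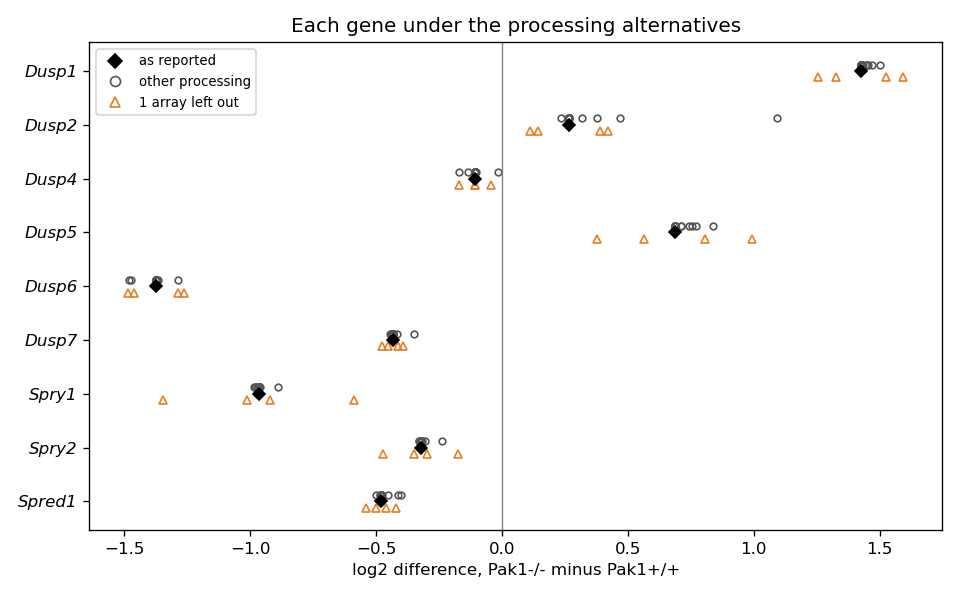
Log2 difference between Pak1-/- and Pak1+/+ (horizontal axis) of the 9 tested genes as reported (diamonds), with other processing (circles) and with 1 array left out (triangles). Dusp1, Dusp6, Dusp7 and Spred1 stay within narrow ranges, while Spry1 runs from -1.35 to -0.59 and Dusp5 from 0.38 to 0.99 as arrays are left out.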

How the data were processed

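RNA (0.5 ug) was labelled with Cy3 and hybridized to single-colour Agilent mouse arrays of 60-base probes. Per the file headers, the deposited files hold linear spot intensities from Feature Extraction 9.5.3.1, with probe coordinates on mm9, and flags (score 0 or 1) for spots above background, saturated or outlying. The authors' own log2 values, which their methods describe as normexp corrected and quantile normalized, were also deposited and served as an alternative (lowest r with the values here 0.99984 across probes).

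Intensities were corrected with normexp (offset 50, limma 3.58.1, R 4.3.3), quantile normalized and expressed as log2. The offset understates differences of dim probes. Outlier spots were set aside and spots of a probe averaged. The 27229 probes above background on 2 or more of the 4 arrays were compared by genotype with limma (two-sided, 2 residual and 2.62 prior degrees of freedom), with Benjamini-Hochberg adjustment over these probes. Differences are Pak1-/- minus Pak1+/+. An exact permutation test of 2 against 2 samples cannot go below p = 0.333 and was not used. The number of arrays limits precision, and p-values measure only the spread between these samples. If the samples of a genotype share a line, that spread is between cultures and not between tumors.

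List genes were named by accession through RefSeq (26055 probes matched), otherwise by the file's name. The genes and lists were chosen with earlier results of these data known. Named list genes were the largest rise and fall of each list, with Egfr, Erbb2 and Mapk3; 1 further gene of this rule is not reported here. Etv4, Etv5 and Srf fall outside the rule and were named after their values were seen. The fit was tested on simulated data. The alternatives were other offsets, scaling to the 75th percentile, cyclic loess, the authors' table, other filters and thresholds, an intensity trend, the mean over probes, the replicate number as a block and each array left out.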

Additional observations from a re-analysis of the deposited data

How the results depend on the processing

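Of 161 values of the 9 tested genes under the alternatives, 148 kept their direction and their side of the threshold, 7 lost it, 6 gained it and 0 changed sign. Some of these values could not move. The stricter thresholds cannot add a call, and the mean over probes leaves the estimate of a gene with 1 probe unchanged. Of 14132 probes called, 8878 passed an adjusted p of 0.01 and 3413 passed when a 2-fold change was also required, both stricter by construction, and the count of pathway list genes became 36 and 20 in place of 58. With the 2-fold requirement 1 of the 10 genes was lower in place of 4. The count of genes higher in Pak1-/- was 2 in place of 1, by the addition of Dusp5, under cyclic loess, with the filter on all 4 arrays, with an intensity trend and with the replicate block (cause not tested), and between 1 and 2 when single arrays were left out. Leave-one-out fits gave 10314 to 12172 probes, 3 to 4 lower genes and 42 to 47 pathway list genes; the lone sample of a group was there taken to vary like the other group. The labels do not say whether the replicate numbers mark a shared origin, and the replicate difference of one genotype was unrelated to that of the other across probes (r = -0.028). With the replicate block 13211 probes and 55 pathway list genes passed, 4 of the 10 genes were lower, and Dusp5 passed (0.69, adjusted p = 0.014). Among the 10 genes, signal over background limits Dusp2 and Spry4.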
